A study of Mus musculus with 12 samples.

Results

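A set of 42 genes that work in cell division was followed through tumour-specific CD8 T cells of mice given checkpoint antibodies. It gathers proliferation genes of mitosis, the spindle checkpoint, DNA replication and nucleotide synthesis, and all 42 were found by symbol among the 48709 genes of the authors' tables. The mice were wild-type C57BL/6 at postnatal day 91 that carried TRAMP-C2, a transplantable mouse prostate tumour line. They were given anti-CTLA-4, an isotype antibody, both blockades together (the arm labelled Combo, called the combination here) or anti-PD-1 DANA, on days 3, 6 and 9 by the sample labels, or 3, 6 and 8 by the series text. DANA is the usual name of an Fc mutation that takes away binding to Fc receptors. On day 28 (after tumour injection per the series text, but after treatment per the labels of the samples), live CD45+CD3+CD8+ cells positive for Spas-1 and negative for Spas-2, meaning specific for the tumour antigen Spas-1, were sorted from draining lymph nodes. For each arm the cells of 5 mice were mixed and the mix was divided in 3 for sequencing. The 3 libraries of an arm are thus technical splits, the p-values cover the variation among those splits and not among mice, and arm and pool cannot be told apart. All 4 arms shared the tumour, strain and sort, and the 3 comparisons share the isotype libraries.

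A dividing cell copies its DNA in S phase and separates the copies in M phase. Licensing factors load the MCM helicase on origins in G1. CDC45 and the GINS complex then turn it into the moving helicase at the fork, where PCNA tethers the polymerases and RPA coats single-stranded DNA. Cyclin-dependent kinases with cyclins E, A and B drive these steps, Aurora and Polo kinases build the spindle, and the checkpoint proteins BUB1, BUBR1 and MAD2 hold anaphase until chromosomes are attached. Most of these genes are transcribed only in cycling cells, through E2F sites at the G1/S transition and through a cell cycle homology region (CHR) beside CCAAT boxes in G2 and M. In CD8 T cells they are best known as markers of clonal expansion after antigen contact, and Mki67 and Top2a are the usual readouts of division in such samples. In bulk RNA, fewer dividing cells and less of the RNA per cell cannot be told apart.

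The promoters of 4 members called or followed below are shown because they carry both promoter types named above: Mki67 and Top2a hold CHR letters and CCAAT boxes, and Rrm1 and Chaf1a an E2F site with CCAAT boxes. Each run is the 250 bases before the RefSeq transcription start in GRCm38.p6, written 5′ to 3′ on the strand of the gene. Capitals mark CHR letters, either TTTGAA or TTCGAA, the CCAAT box, and E2F letters (TTCCCGCC, TTTCCCGC, TTTGGCGC, TTTCGCGC or TTTGCCGC), each on either strand. The windows are chr7:135716380-135716629 on the minus strand, chr11:99024190-99024439 on the minus strand, chr7:102441445-102441694 on the plus strand and chr17:56040166-56040415 on the plus strand. None overlaps an exon of GENCODE M21.
Mki67 promoter: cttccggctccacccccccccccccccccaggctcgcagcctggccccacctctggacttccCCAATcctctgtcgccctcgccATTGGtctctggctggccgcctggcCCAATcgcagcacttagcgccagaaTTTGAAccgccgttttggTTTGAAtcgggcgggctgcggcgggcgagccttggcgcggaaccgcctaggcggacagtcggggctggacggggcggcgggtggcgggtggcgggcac
Top2a promoter: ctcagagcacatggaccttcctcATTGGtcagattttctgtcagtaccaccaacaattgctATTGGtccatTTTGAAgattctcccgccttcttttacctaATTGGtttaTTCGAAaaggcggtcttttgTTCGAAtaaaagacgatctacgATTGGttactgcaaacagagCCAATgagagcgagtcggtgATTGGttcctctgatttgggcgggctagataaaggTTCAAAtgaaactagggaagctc
Rrm1 promoter: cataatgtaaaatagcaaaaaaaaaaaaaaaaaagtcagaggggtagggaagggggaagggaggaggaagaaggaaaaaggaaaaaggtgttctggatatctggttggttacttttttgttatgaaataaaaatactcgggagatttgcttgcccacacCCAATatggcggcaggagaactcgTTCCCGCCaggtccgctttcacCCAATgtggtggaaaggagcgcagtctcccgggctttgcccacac
Chaf1a promoter: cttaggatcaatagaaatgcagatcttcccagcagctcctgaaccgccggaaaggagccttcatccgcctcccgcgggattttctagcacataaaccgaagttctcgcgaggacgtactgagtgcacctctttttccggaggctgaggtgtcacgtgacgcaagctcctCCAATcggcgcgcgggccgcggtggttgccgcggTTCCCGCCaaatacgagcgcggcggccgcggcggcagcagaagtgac
The Mki67 window holds 2 CHR matches and 3 CCAAT boxes, and that of Top2a 4 and 6. Promoters of 34 members were in the RefSeq table, some with more than 1 start, 37 windows in all. CCAAT stood in 30 of these 37 (81.1%) against 33.8% of all 32851 windows of that length, E2F letters in 9 (24.3%) against 3.24%, and CHR letters in 10 (27.0%) against 17.1%. A match is a description of letters and not a site of binding.

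The authors' tables give, for each gene, the larger of the 2 arm means in RPKM, a read count scaled by exon length and library size, a log2 fold change against isotype and its p-values. Library sizes and, for many members, the whole reads in each library could be recovered from these means. The smallest of the 12 libraries held 14729713 reads (anti-CTLA-4) and the largest 42556869 (combination). Below, reads of an arm's 3 libraries are always given from the smallest library to the largest. Where an arm had the lower mean, its level was implied from the deposited fold change and is called implied. A member was called where the false discovery rate in the authors' deposited table was under 0.05, here written as adjusted p. The scaling behind these fold changes put the median tested gene, on the log2 scale, at -0.42 in the combination, -0.62 in anti-CTLA-4 and -0.45 in anti-PD-1 DANA. Scaling by library size would add 0.13, 0.96 and 0.82 to these fold changes. All 11 CD8 T cell genes examined stood at 1 RPKM or more in every arm, with Cd8a between 78.0 and 147 RPKM. CD8 T cell RNA was thus present throughout, which tests neither the purity of the sort nor the specificity for Spas-1. Genes of B cells were present too: the sum over 10 markers was 270 RPKM in isotype, 637 in anti-CTLA-4, 348 in anti-PD-1 DANA and 236 in the combination.

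Cell division genes were scarce in these cells and uneven between libraries. In isotype, 26 of the 42 were under 0.1 RPKM and 9 reached 1 RPKM, and all but 1 of those 9 belong to licensing and the fork. The number at 1 RPKM or more was 18 in anti-CTLA-4, 18 in anti-PD-1 DANA and 20 in the combination. Over the 4 arms, 7 members were at 1 RPKM or more throughout: Mcm2, Mcm3, Mcm4, Mcm6, Mcm7, Gins2 and Pcna. The opposite end held 9 members that never reached 0.1 RPKM, among them Cdk1, the kinase that starts mitosis, which had reads in anti-PD-1 DANA only, at 0.00361 RPKM. Plk1, Aurkb and Cdc6 were listed at 0 in every arm and were not tested. For these 3, a count of 0 allows a level of up to 0.00608 to 0.0234 RPKM (3 reads over the libraries of an arm, counting error only).

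**Figure D1:**
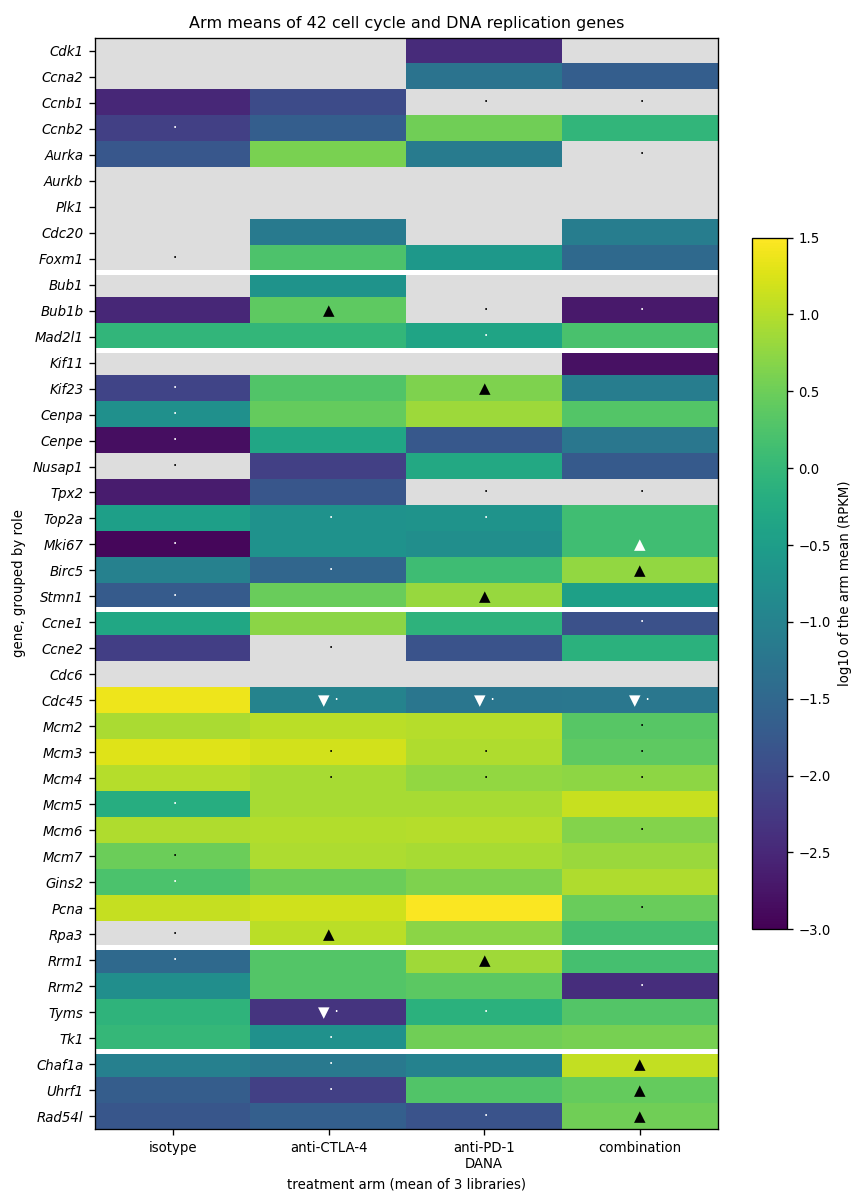
Arm means (RPKM, log10 colour scale, mean of 3 libraries) of the 42 genes in the 4 arms, grouped by role with white lines between groups. Grey marks a level of 0 or under 0.001 RPKM, a dot a level implied from the fold change, and a triangle a gene called higher (up) or lower (down) against isotype in the authors' deposited table. In isotype 8 of the 13 licensing and fork genes stand at 1 RPKM or more, beside 1 of the 4 nucleotide synthesis genes and none of the other groups.

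Of the 39 tested members, 12 were called in at least 1 comparison and 27 in none. No such share over all tested genes is given here, so this count has no background and shares are set side by side per comparison only. Cdc45 was called in all 3, and no member in exactly 2. Anti-CTLA-4 had 2 members called higher (5.13%; 2.74% of all tested genes were) and 2 called lower (5.13%; 1.49% of all tested genes). Anti-PD-1 DANA had 3 called higher (7.69% against 2.43% of all tested genes) and 1 lower (2.56% against 1.32%). The combination had 5 called higher (12.8% against 3.94%) and 1 lower (2.56% against 3.59%). Each of these counts is small. The median log2 fold change of the tested members in the authors' deposited table was 1.79 for the combination, 0.32 for anti-CTLA-4 and 0.57 for anti-PD-1 DANA, against -0.42, -0.62 and -0.45 over all tested genes.

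**Figure D2:**
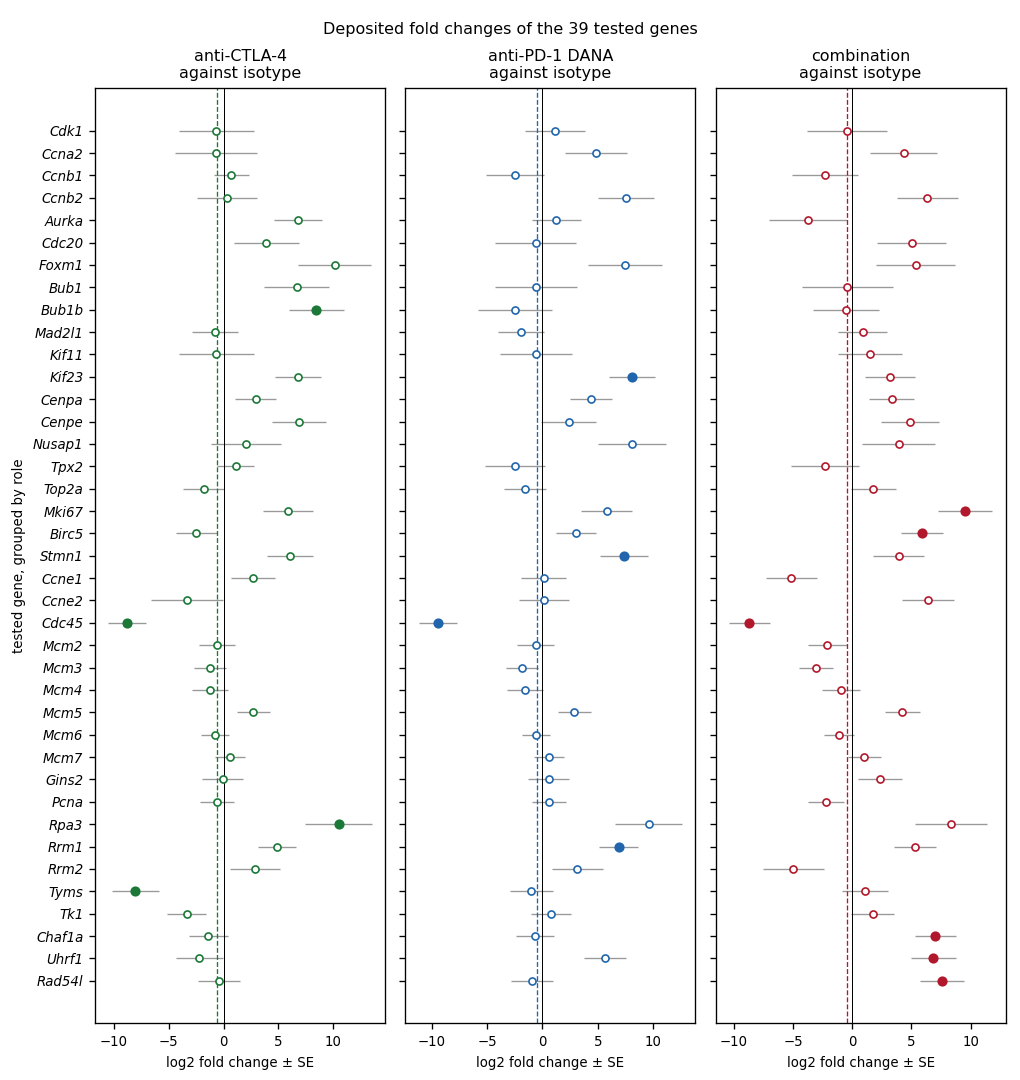
Log2 fold changes against isotype of the 39 tested genes from the authors' deposited table, with the standard error implied by each p-value (bars). Filled points were called (adjusted p under 0.05), open points were not, and the dashed line is the median of all 17833 tested genes (-0.62, -0.45 and -0.42). Cdc45 is the filled point near -9 in every panel.

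Chromosome and spindle genes gave the calls best known as signs of division, with different members called in different comparisons against isotype. A call in 1 comparison only is no sign of a difference between treated arms, which is tested further below. Mki67 encodes Ki-67, the coat of mitotic chromosomes and the standard marker of cycling cells. In the combination, its libraries held 417, 736 and 6 reads, a mean of 1.33 RPKM. Anti-CTLA-4 had 77, 11 and 1 reads (0.193 RPKM), anti-PD-1 DANA 7, 125 and 2 (0.166 RPKM), and the isotype level was implied at 0.00122 RPKM, about 1 read in all. Both high libraries of the combination lay above every other library. Its largest library, at 0.0140 RPKM, lay within the range of the anti-CTLA-4 and anti-PD-1 DANA libraries, so the treated arms overlapped. Its 6 reads were still more than the about 1 read implied for the whole isotype arm. In the authors' deposited table, Mki67 was higher in the combination by 9.54 on the log2 scale with an implied standard error of 2.30 (adjusted p = 0.00483), and was not called for anti-CTLA-4 (5.85, adjusted p = 0.230) or anti-PD-1 DANA (5.81, adjusted p = 0.238). A fold change against about 1 read depends on the prior count of the authors' fit and bounds nothing.

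Birc5 encodes survivin, the subunit of the chromosomal passenger complex that brings Aurora B to centromeres. The combination held 745, 3 and 1236 Birc5 reads (5.82 RPKM), anti-PD-1 DANA 267, 3 and 52 (1.25 RPKM) and isotype 1, 18 and 6 (0.0939 RPKM), and anti-CTLA-4 was implied at 0.0307 RPKM. As with Mki67, 1 library of the combination was far below its others. For Birc5 that library lay within the range of the isotype libraries, and the others stood far above them. The authors' deposited table called it higher in the combination (5.90, implied standard error 1.81, adjusted p = 0.0435), with 2.99 for anti-PD-1 DANA (adjusted p = 0.911) and -2.47 for anti-CTLA-4 (adjusted p = 1.0). The low library was a different one in each gene: the largest for Mki67 and the middle one for Birc5. Top2a, topoisomerase II alpha, which untangles sister chromatids, followed the library order of Mki67 in the combination with 382, 655 and 3 reads (1.33 RPKM). It was not called, because isotype had 217, 10 and 2 reads (0.352 RPKM) and the log2 fold change in the authors' deposited table was 1.79 (adjusted p = 1.0).

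Stmn1 and Kif23 were called in anti-PD-1 DANA. Stmn1 encodes stathmin, which destabilises microtubules and is abundant in dividing lymphocytes. Its libraries held 183, 0 and 934 reads in anti-PD-1 DANA (6.38 RPKM), 114, 177 and 1 in anti-CTLA-4 (2.96 RPKM) and 18, 2 and 56 in the combination (0.366 RPKM). Isotype was implied at 0.0199 RPKM, about 3 reads. At least 1 library of each treated arm was at 2 reads or fewer. The authors' deposited table gave 7.36 for anti-PD-1 DANA (implied standard error 2.13, adjusted p = 0.0425), 6.05 for anti-CTLA-4 (adjusted p = 0.136) and 3.92 for the combination (adjusted p = 0.716). Kif23, the kinesin of the central spindle needed for cytokinesis, stood at 4.26 RPKM in anti-PD-1 DANA, 1.90 in anti-CTLA-4 and 0.0815 in the combination, with isotype implied at 0.00821. Its reads per library were not recovered. In the authors' deposited table Kif23 was called for anti-PD-1 DANA (8.09, adjusted p = 0.0178) and came next to the threshold for anti-CTLA-4 (6.76, adjusted p = 0.0665), with 3.17 for the combination (adjusted p = 1.0).

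The other members of that group were not called. Cenpa, the histone variant that marks centromeres, was at 6.91 RPKM in anti-PD-1 DANA, 2.78 in anti-CTLA-4, 1.98 in the combination and 0.181 (implied) in isotype, with log2 fold changes of 4.42, 2.91 and 3.33 by the authors' deposited table (adjusted p = 0.324, 1.0 and 0.806). Cenpe, a kinetochore motor, had 2, 214 and 0 reads in anti-CTLA-4 and at most 62 in a library elsewhere. Nusap1, which bundles spindle microtubules, had 107, 54 and 0 reads in anti-PD-1 DANA and at most 5 in any library of the other two treated arms. Tpx2, an activator of Aurora A, had 4 reads in anti-CTLA-4 and 1 in isotype. Kif11, the motor that separates spindle poles, was above 0 in the combination only (0.00163 RPKM). Summed over the 10 spindle, centromere and chromosome genes, levels were 0.660 RPKM in isotype, 8.54 in anti-CTLA-4, 19.7 in anti-PD-1 DANA and 11.0 in the combination, and fold changes were positive for 7, 7 and 9 of the 10 (8, 8 and 9 by library size). As a description of these pools, every treated arm had more of this RNA than isotype. Called higher were 0, 2 and 2 of the 10, and none lower. Of all tested genes, 2.74%, 2.43% and 3.94% were called higher in these comparisons. Single genes made up much of the sums, such as Cenpa at 6.91 RPKM in anti-PD-1 DANA and Birc5 at 5.82 in the combination.

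**Figure D3:**
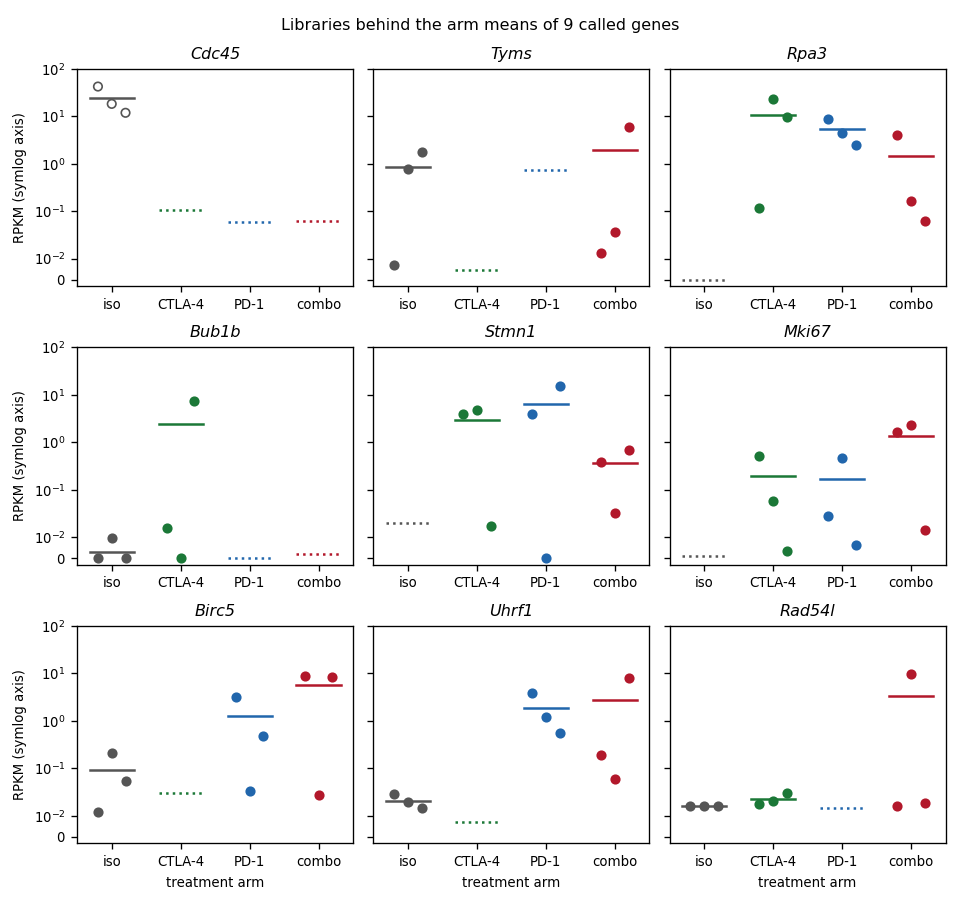
RPKM in each library (points, smallest library left, largest right) of 9 called genes in the 4 arms, on a symlog axis, with the arm mean as a line (dotted where implied, then without points). Open points for Cdc45 are a whole-read solution that could not be checked and was not accepted, since chance alone would give 0.68 solutions. In most high arms 1 or 2 libraries carry the mean, such as the middle library for Rad54l in the combination (2454 of its reads), while Rad54l in isotype shows 3 even, low points.

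Mitotic kinases, cyclins and their regulators gave no call in any comparison. Of the 9, Aurkb and Plk1 had no reads. Aurka, Aurora A of the spindle poles, had 260, 233 and 1 reads in anti-CTLA-4 (3.94 RPKM), 1, 14 and 0 in anti-PD-1 DANA and 3, 0 and 0 in isotype, and its combination level was implied at 0. Here again 2 of the 3 high-arm libraries stood above all others, and the third did not. In the authors' deposited table its log2 fold change for anti-CTLA-4 was 6.78 (adjusted p = 0.0871). Ccnb2, cyclin B2, had 0, 1 and 487 reads in anti-PD-1 DANA (3.31 RPKM) and 0, 2 and 174 in the combination (0.898 RPKM). Nearly all of these reads came from the largest library of each arm, and the authors' deposited table gave 7.53 (adjusted p = 0.114) and 6.35 (adjusted p = 0.226).

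Foxm1, the transcription factor that drives G2 and M genes, showed the sharpest split within an arm, with 0, 577 and 0 reads in anti-CTLA-4 (1.75 RPKM) and 0, 114 and 0 in anti-PD-1 DANA. Its isotype level was implied at 0. In RPKM, anti-CTLA-4 was 268 times a floor of 3 reads over the isotype libraries, a floor that covers counting error only. All of it came from 1 library, and the authors' deposited table did not call it (adjusted p = 0.0935). Ccna2, cyclin A2, had 1, 1 and 18 reads in anti-PD-1 DANA and 0, 8 and 1 in the combination, and none in the other two arms. Ccnb1, cyclin B1, had 3 reads in anti-CTLA-4 and 1 in isotype. Cdc20, which activates the anaphase-promoting complex, had 6 reads in 1 library of anti-CTLA-4 and 19 in 1 library of the combination. Of Ccna2's exons 12.5% lie under the opposite-strand gene Exosc9, and the protocol is not stated to keep strand, so reads there cannot be assigned to 1 of the pair.

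Of the spindle checkpoint genes, Bub1b was called higher in anti-CTLA-4. Bub1b encodes BUBR1, part of the complex that blocks anaphase. Anti-CTLA-4 held 1, 0 and 926 reads (2.45 RPKM), isotype 0, 1 and 0 (0.00318 RPKM), and the other two arms were implied at 0.00204 RPKM or less. The call rests on 1 library. The arm means differed 769-fold, with an interval of 138 to 30370 from the exact Poisson limits of the single isotype read, which covers counting error only. In the authors' deposited table the log2 fold change was 8.43 (implied standard error 2.50, adjusted p = 0.0496). Bub1, its partner kinase, had 40, 0 and 0 reads in anti-CTLA-4 and none elsewhere (6.64 by the authors' deposited table, adjusted p = 0.395). Mad2l1, the inhibitor of CDC20, was present in every arm, with 2, 560 and 5 reads in isotype (0.917 RPKM), 351, 3 and 0 in anti-CTLA-4 (0.953 RPKM) and 3, 1214 and 78 in the combination (1.59 RPKM), while anti-PD-1 DANA was implied at 0.420 RPKM. Its fold changes in the authors' deposited table were -0.79, -1.95 and 0.89 (adjusted p = 1.0 each).

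The licensing and fork genes made up most of the RNA of the set, and within them Cdc45 fell in all treated arms. Cdc45 encodes the subunit that activates the MCM helicase at the fork. The isotype mean was 24.1 RPKM, the highest of any member in that arm, and the implied levels were 0.105 RPKM in anti-CTLA-4, 0.0593 in anti-PD-1 DANA and 0.0617 in the combination, equal to about 23, 17 and 21 reads over 3 libraries. With the annotated exon length, the isotype mean had a single whole-read solution of 3555, 1568 and 1364 reads. Chance alone would give 0.68 solutions, and no second mean could check it, so it was not accepted. How even the isotype libraries were is thus not known. The authors' deposited table gave -8.78 for anti-CTLA-4 (implied standard error 1.73, adjusted p = 0.00141), -9.44 for anti-PD-1 DANA (1.74, adjusted p = 0.000363) and -8.70 for the combination (1.73, adjusted p = 0.000453). These comparisons share the isotype libraries, so they are not 3 separate measurements of the high arm. Cdc45 shares 5.96% of its exon bases with Ufd1 on the opposite strand. In GRCm38 Cdc45 spans chromosome 16 at 18780447 to 18811987 on the minus strand.

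The member from the GINS complex, the partner of CDC45 at the fork, was not called. This gene, Gins2, had 111, 483 and 164 reads in anti-CTLA-4 (3.12 RPKM), 521, 0 and 1020 in anti-PD-1 DANA (4.35 RPKM) and 0, 547 and 4122 in the combination (9.27 RPKM), with isotype implied at 1.66 RPKM. None of its fold changes in the authors' deposited table was called (-0.09, 0.56 and 2.36, adjusted p = 1.0 each). In GENCODE M21, 67.3% of Gins2's exon bases lie under exons of Gse1 on the other strand, and Gse1 was at 0.330 to 1.64 RPKM, so the split of reads between these genes is uncertain. The helicase subunits Mcm2 to Mcm7 were at 0.648 RPKM or more in every arm. Mcm3, the highest, was at 19.1 RPKM in isotype and implied at 2.47 RPKM in the combination, 15.8 in anti-CTLA-4 and 9.25 in anti-PD-1 DANA (-3.08, -1.23 and -1.87 by the authors' deposited table, adjusted p = 0.460, 1.0 and 1.0).

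Mcm5 was the subunit furthest above isotype. It had 157, 1235 and 717 reads in anti-CTLA-4 (8.31 RPKM), 10, 1716 and 1109 in anti-PD-1 DANA (8.28 RPKM) and 2270, 9 and 2885 in the combination (13.4 RPKM), against an implied 0.648 RPKM in isotype. The authors' deposited table gave 2.72, 2.85 and 4.23, none called (adjusted p = 0.732, 0.637 and 0.110). Beside Mcm5, reads were recovered for Mcm6 in anti-PD-1 DANA only and for Mcm7 in anti-PD-1 DANA and the combination only. None of those libraries was near 0. Anti-PD-1 DANA had 796, 1928 and 1101 Mcm6 reads and 965, 418 and 1708 Mcm7 reads. The combination had 904, 1283 and 556 Mcm7 reads. How even Mcm6 and Mcm7 were in the other arms is not known. Mcm2 ranged from 2.16 (implied, combination) to 10.6 RPKM (anti-CTLA-4) and Mcm4 from 5.52 (implied, combination) to 9.86 RPKM (isotype). Mcm2 shows what the scaling does, since its mean was higher in anti-CTLA-4 than in isotype (10.6 against 8.56 RPKM) while its log2 fold change in the authors' deposited table was -0.62, or 0.34 by library size. No MCM subunit was called in any comparison.

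Pcna, the sliding clamp, reached the highest level of any member, 29.7 RPKM in anti-PD-1 DANA, beside 14.8 in anti-CTLA-4, 12.7 in isotype and an implied 3.02 in the combination. The isotype reads were 0, 2226 and 11, so even this abundant member was carried by 1 library there. Its fold changes in the authors' deposited table were -0.61, 0.57 and -2.19 (adjusted p = 1.0 each). Rpa3, the smallest subunit of RPA, was called higher in anti-CTLA-4. Its reads were 2, 493 and 330 in anti-CTLA-4 (10.9 RPKM), 247, 134 and 92 in anti-PD-1 DANA (5.30 RPKM) and 113, 6 and 3 in the combination (1.42 RPKM), and isotype was implied at 0. All 9 treated libraries had Rpa3 reads. Against a floor of 3 reads over the isotype libraries, RPKM was 329 times the floor in anti-CTLA-4, 160 times in anti-PD-1 DANA and 43.0 times in the combination. The floor covers counting error only and not the spread between libraries, so these ratios are no lower bounds. In the authors' deposited table the log2 fold changes were 10.48 (implied standard error 3.04, adjusted p = 0.0422), 9.57 (adjusted p = 0.0790) and 8.33 (adjusted p = 0.135). The call in anti-CTLA-4 and the lack of one in the other arms is no sign of a difference between them: anti-CTLA-4 minus anti-PD-1 DANA was 0.91, with a 95% interval of -7.51 to 9.33.

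The S phase cyclins were uneven between arms. Ccne1, cyclin E1, had 1, 472 and 525 reads in anti-CTLA-4 (5.33 RPKM), 153, 5 and 2 in anti-PD-1 DANA (0.822 RPKM) and 1, 92 and 1 in isotype (0.479 RPKM), and was implied at 0.0129 RPKM in the combination, about 3 reads. Ccne2, cyclin E2, had 188, 0 and 13 reads in the combination (0.758 RPKM) and at most 2 in any library of isotype and anti-PD-1 DANA, with anti-CTLA-4 implied at 0. The authors' deposited table gave Ccne1 2.70, 0.11 and -5.14 (adjusted p = 1.0, 1.0 and 0.272) and Ccne2 -3.33, 0.14 and 6.39 (adjusted p = 1.0, 1.0 and 0.0907). The pair of E cyclins thus stood in opposite order in anti-CTLA-4 and the combination, with no call for either. Ints8, on the other strand, covers 17.4% of Ccne2's exon bases and was at 0.356 to 1.41 RPKM.

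Nucleotide synthesis genes gave 1 call in each direction, in different arms. Rrm1, the large subunit of ribonucleotide reductase, was at 7.13 RPKM in anti-PD-1 DANA, 2.01 in anti-CTLA-4, 1.49 in the combination and an implied 0.0343 in isotype, and its reads per library were not recovered. All 3 treated means were far above isotype. The authors' deposited table called it for anti-PD-1 DANA (6.89, implied standard error 1.74, adjusted p = 0.0143) and gave 4.89 for anti-CTLA-4 (adjusted p = 0.144) and 5.29 for the combination (adjusted p = 0.0712). Rrm2, the small subunit whose supply limits the enzyme, did not match its partner: 0, 1 and 481 reads in anti-CTLA-4, 460, 0 and 11 in anti-PD-1 DANA, 0, 32 and 2 in isotype, and an implied 0.00395 RPKM in the combination. Its fold changes in the authors' deposited table were 2.86, 3.14 and -4.97 (adjusted p = 1.0, 1.0 and 0.630).

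Tyms, thymidylate synthase, which makes dTMP, was called lower in anti-CTLA-4. Isotype had 1, 114 and 353 reads (0.845 RPKM), anti-CTLA-4 was implied at 0.00474 RPKM, about 2 reads, anti-PD-1 DANA at 0.747 RPKM, and the combination had 2, 7 and 1524 reads (1.98 RPKM). One isotype library was thus as low as the anti-CTLA-4 arm. The log2 fold change in the authors' deposited table was -8.05 for anti-CTLA-4 (implied standard error 2.16, adjusted p = 0.0228), beside 1.10 in the combination and -1.0 in anti-PD-1 DANA (adjusted p = 1.0 each). Tk1, the S phase thymidine kinase, had 1, 4 and 512 reads in isotype (1.01 RPKM), 309, 10 and 1220 in anti-PD-1 DANA (3.29 RPKM) and 18, 1276 and 743 in the combination (3.72 RPKM), with anti-CTLA-4 implied at 0.188 RPKM. For Tk1 the authors' deposited table gave -3.38, 0.81 and 1.71 (adjusted p = 0.688, 1.0 and 1.0). Both dTMP genes were thus lowest in anti-CTLA-4, and only Tyms passed the test.

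All 3 members of chromatin assembly, maintenance methylation and recombination were called higher in the combination and in no other comparison. Of all tested genes 3.94% were called higher in the combination. Chaf1a encodes the large subunit of CAF-1, which puts histones on new DNA. It was at 12.5 RPKM in the combination, 0.0984 in anti-PD-1 DANA, 0.0902 in isotype and an implied 0.0655 in anti-CTLA-4 (7.02 for the combination in the authors' deposited table, implied standard error 1.72, adjusted p = 0.00574). The gene spans chromosome 17 at 56040416 to 56068026, and in GENCODE M21 exons of Ubxn6 on the other strand cover 52.5% of its exon bases. Ubxn6 itself was even across arms, between 4.26 (implied) and 5.35 RPKM, with a log2 fold change of -0.06 for the combination by the authors' deposited table (adjusted p = 1.0). How reads in the shared stretch were assigned is not given in the sources used here, and the reads of Chaf1a per library were not recovered.

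Uhrf1, which recruits the maintenance DNA methyltransferase to new DNA, had 20, 8 and 1425 reads in the combination (2.70 RPKM), 404, 138 and 76 in anti-PD-1 DANA (1.89 RPKM) and 3, 2 and 2 in isotype (0.0209 RPKM), with anti-CTLA-4 implied at 0.00719 RPKM. Every library of the combination and of anti-PD-1 DANA had more Uhrf1 reads than any isotype library. The authors' deposited table called it for the combination (6.86, implied standard error 1.92, adjusted p = 0.020) and gave 5.62 for anti-PD-1 DANA (adjusted p = 0.118) and -2.20 for anti-CTLA-4 (adjusted p = 1.0). The mean of the combination came nearly whole from its largest library. Rad54l, a motor of homologous recombination, had 3, 2454 and 6 reads in the combination (3.33 RPKM), 3, 3 and 4 in isotype (0.0160 RPKM) and 2, 3 and 7 in anti-CTLA-4 (0.0229 RPKM). Without its middle library the combination is at the level of the other arms. Its log2 fold change in the authors' deposited table was 7.60 (implied standard error 1.85, adjusted p = 0.00513). Lrrc41 shares 15.4% of Rad54l's exon bases on the other strand and was at 1.30 RPKM in the combination but at 11.0 in anti-CTLA-4, where Rad54l was low.

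How much a single library carried was counted over all arm means with recovered reads. Of 59 such means with 10 or more reads, 33 drew 80% or more of the reads from 1 library and 10 had 10 or more reads in every library. The first number was 6 of 9 in isotype, 7 of 14 in anti-CTLA-4, 9 of 18 in anti-PD-1 DANA and 11 of 18 in the combination. No single library led throughout: in the combination the smallest, middle and largest library had the highest RPKM for 5, 6 and 7 of the 18 means. Among called members with recovered reads, Bub1b (anti-CTLA-4), Stmn1 (anti-PD-1 DANA), Uhrf1 and Rad54l (both combination) drew 80% or more from 1 library. Without these, 1 member remained called higher in anti-CTLA-4, 2 in anti-PD-1 DANA and 3 in the combination, a selection made after the data had been seen. Of these, Kif23, Rrm1 and Chaf1a had no recovered reads, so whether 1 library carried them is not known.

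**Figure D4:**
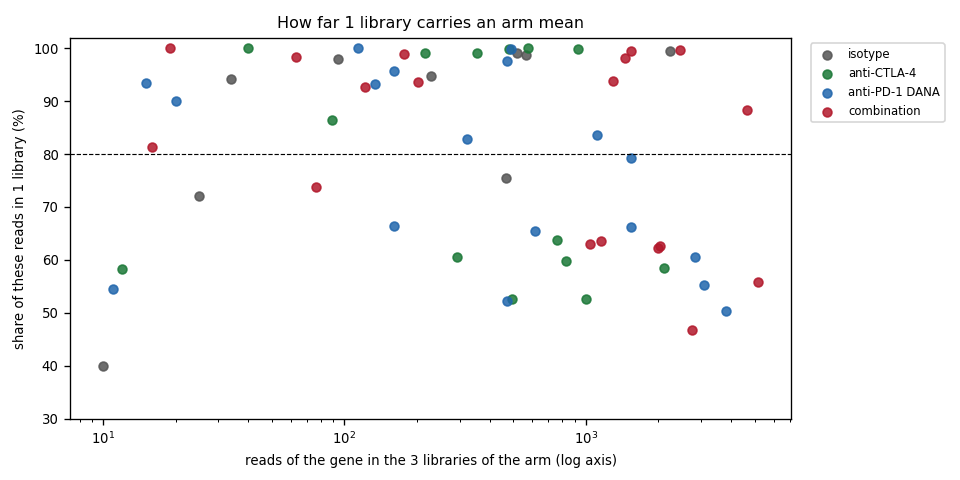
Share of an arm's reads found in its richest library (percent) against the total reads of the gene in that arm (log axis), for the 59 arm means with 10 or more recovered reads. The dashed line marks 80%; 33 points lie at or above it, also among means of over 1000 reads.

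Whether the treated arms differed from each other was tested on differences of the deposited fold changes, over 39 members and 3 pairs, with adjustment over all listed genes. With an upper bound on the error, no member was called in any pair (0.0561%, 0.0336% and 0.00% of all tested genes were, for the combination against anti-CTLA-4, the combination against anti-PD-1 DANA and anti-CTLA-4 against anti-PD-1 DANA). The unadjusted p of this test was under 0.05 for 11, 4 and 4 members, with no share of all tested genes at that threshold to set beside it. Where equal variances were assumed for genes whose 3 standard errors lay within 5% of each other, 3 members were called for the combination against anti-CTLA-4 (0.903% of all tested genes) and 2 against anti-PD-1 DANA (0.449%), and still none for anti-CTLA-4 against anti-PD-1 DANA. Chaf1a was higher in the combination than in anti-CTLA-4 by 8.43 log2 units (95% interval from the upper bound 3.59 to 13.3) and than in anti-PD-1 DANA by 7.69 (2.88 to 12.5). Rad54l differed by 8.00 (2.82 to 13.2) and 8.53 (3.34 to 13.7), on the 1 library named above. Birc5 differed from anti-CTLA-4 by 8.37 (3.23 to 13.5). Uhrf1 was not called in these pairs, with 9.06 (3.44 to 14.7) against anti-CTLA-4 and 1.24 (-4.08 to 6.55) against anti-PD-1 DANA. Its call against isotype in the combination alone is thus no sign of a difference from anti-PD-1 DANA. For Mki67 the combination minus anti-CTLA-4 was 3.69 (-2.70 to 10.1) and minus anti-PD-1 DANA 3.73 (-2.66 to 10.1), intervals that hold 0 as well as large differences in either direction.

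The wider pathway was read in 183 other cell cycle and replication genes (further cyclins and kinases, origin, fork, kinetochore, condensin, cohesin and checkpoint genes), of which 179 were tested. Called higher and lower were 5 and 3 for anti-CTLA-4 (2.79% and 1.68%), 6 and 3 for anti-PD-1 DANA (3.35% and 1.68%) and 17 and 9 for the combination (9.50% and 5.03%), beside the shares of all tested genes given above. For the 2 single antibodies these shares were near the background. The combination's shares were above it in both directions, and the median log2 fold change of the 179 was 0.00 there. In all, 30 of the 183 were called at least once, again with no such share of all tested genes beside it.

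The 12 with the lowest adjusted p show both directions within 1 complex. Of the kinetochore genes, Mis12 was higher in all 3 comparisons (7.27, 6.13 and 8.08 by the authors' deposited table, adjusted p = 0.00623, 0.0305 and 0.000940), from an implied 0.0271 RPKM in isotype to 8.86, 3.54 and 8.29 RPKM. Nsl1, of the same MIS12 complex, was lower in anti-CTLA-4 (-8.63, adjusted p = 0.0109) and the combination (-8.38, adjusted p = 0.00830) by the authors' deposited table. Ndc80 and Cenpm were called higher in the combination by the authors' deposited table (7.70 and 9.22, adjusted p = 0.00629 and 0.0124), and Zwint lower (-5.45, adjusted p = 0.00870). Of the replication genes, Gins4 fell in the combination (-7.43, adjusted p = 0.00198 in the authors' deposited table), from 17.9 RPKM in isotype to an implied 0.110 RPKM, while Gins2 of the same complex was not called. Orc5, of the origin recognition complex, was higher in anti-CTLA-4 (8.37, adjusted p = 0.00811 in the authors' deposited table). Dut, the dUTPase that keeps uracil out of DNA, was higher in anti-PD-1 DANA and the combination (7.09 and 7.31, adjusted p = 0.00558 and 0.00189 in the authors' deposited table). The mitotic entry genes Cdc25a, a phosphatase, and Pkmyt1, a kinase that opposes it on CDK1, were called in different arms of the authors' deposited table: Cdc25a in the combination (7.78, adjusted p = 0.00705) and Pkmyt1 in anti-CTLA-4 and anti-PD-1 DANA (6.97 and 7.31, adjusted p = 0.0165 and 0.0116). Kif22, a chromosome arm motor, was higher in the combination (7.97, adjusted p = 0.00920 in the authors' deposited table). Ncapg2, of condensin II, was lower in all 3 comparisons (-9.18, -8.78 and -7.74, adjusted p = 0.0132, 0.0150 and 0.0227 in the authors' deposited table), like Cdc45 from an isotype mean, here 1.58 RPKM, to under 0.01 RPKM.

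Markers of other cells that can divide in a lymph node differed in level between arms. The B cell genes Ms4a1 and Cd79a, of cells that the sort should remove, were at 0.0452 and 14.6 RPKM in isotype, 5.90 and 75.6 in anti-CTLA-4, 1.05 and 26.3 in anti-PD-1 DANA and 1.03 and 29.2 in the combination. Of all 10 B cell markers, 10 were above their isotype level in anti-CTLA-4, 6 in anti-PD-1 DANA and 5 in the combination. Cd22, for example, was at 3.85 RPKM in isotype and implied at 0.0495 in the combination. Over 6 germinal centre B cell genes the sum was 5.71 RPKM in isotype, 12.9 in anti-CTLA-4, 7.93 in anti-PD-1 DANA and 9.57 in the combination. Of these 6, only 3, 3 and 2 were above their isotype level in the treated arms, in that order. Over 5 plasma cell genes the sum was 15.6, 14.9, 20.6 and 1.0 RPKM, with Sdc1 at 0 in every arm. Above isotype were 3, 2 and 2 of the 5. Over 8 macrophage genes the sum was 63.0, 108, 75.8 and 3.64 RPKM, with Adgre1 at 0 in every arm. Above isotype were 4, 5 and 3 of the 8. For dendritic cells the sum over 5 genes was 25.4 RPKM in isotype and 4.65, 2.74 and 7.56 in the treated arms. Most of it in isotype came from 1 gene, Siglech (25.0 RPKM). Of these 5 markers, 3 were above their isotype level in anti-CTLA-4, 2 in anti-PD-1 DANA and 3 in the combination. Over 6 erythroid genes the sum was 0.0625 RPKM in isotype, 18.5 in anti-CTLA-4, 0.0477 in anti-PD-1 DANA and 3.10 in the combination. For 3 CD4 and regulatory T cell genes it was 0.535, 3.80, 0.333 and 0.222 RPKM in that order. Above isotype were 3, 1 and 1 of the 6 erythroid genes and 3, 2 and 2 of the 3 CD4 and regulatory genes. The sum over 11 CD8 T cell genes was 3100 RPKM in isotype, 3859 in anti-CTLA-4, 4185 in anti-PD-1 DANA and 3031 in the combination. The part of B, dendritic or other cells in the calls above was not tested.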

How the data were processed

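RNA of 12 libraries, 3 in each of 4 arms, was amplified from 0.25 ng with 21 cycles, and per the labels' protocols CLC Genomics Workbench aligned and counted the reads, on GRCm38.p5, per the submitters' processing notes. Not given in the sources used here are its version, annotation, strand setting, statistical model and handling of reads with several matches. The labels state about 48710 reads per library, far below the sizes recovered here. Each treatment has 1 table of its comparison with isotype. The unit of the larger arm mean deposited by the authors is RPKM, as read from its values. The log2 fold change and a signed fold change, a score not used here, were deposited by the authors and are positive where treatment is higher. The p-values deposited by the authors are adjusted over 48709 listed genes, of which 17833 were tested. The design foresaw a fit of counts only if the tables held them, which they do not.

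Library sizes were recovered from steps of single reads, and whole reads per library were solved from the RPKM means with GENCODE M21 exon lengths, accepting a solution where chance gave at most 0.05. Of means tried, 95.6% to 96.1% had 1 solution, against 0% with lengths 1 base longer. Libraries cannot be tied to replicate numbers. The deposited fold change followed from reads plus a prior of 0.176 reads over scaled library size. In pairs left out of the fit, the 95th percentile of error of the predicted fold change was 0.15 to 0.29 log2 units. All these pairs had the treated mean above isotype. Implied levels were worked back from the deposited fold change and the prior, and their own error was not checked. These recovery steps were chosen after seeing the data. A standard error was implied from each fold change and p-value, assuming a normal test statistic. Differences between treated arms used these errors (upper bound, or equal variances). Alternatives were adjustment over tested genes, Bonferroni adjustment, minimum means of 1 and 5 RPKM, and other scalings. Methods were tested on simulated data.

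The members and gene lists were chosen with earlier results of these data known. Full values are given for each called member, the 3 most abundant of each role group and the 3 uncalled with the lowest p per comparison. Pathway genes are named where called, at most 12. Python 3.11.15, numpy 2.4.6, pandas 2.3.3, scipy 1.17.1 and matplotlib 3.10.9 were used.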

Additional observations from a re-analysis of the deposited data

How the results depend on the processing

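No paired analysis was possible because the tables hold no value per library and the recovered libraries carry no replicate number; for the same reason no fit without a replicate could be made. Counts of called members depended on the setting, mostly among those called higher. Read against all tested genes, the share called higher was 2.74% for anti-CTLA-4, but 6.04% over tested genes only and 6.73% with library size scaling. For anti-PD-1 DANA it was 2.43%, 6.03% and 5.98%, and for the combination 3.94%, 6.86% and 4.32%. In that order of arms it was 5.07%, 4.07% and 5.34% when centred on the median tested gene. By Bonferroni it was 0.0617%, 0.0841% and 0.157%, and at a minimum of 5 RPKM 1.65%, 1.56% and 1.85%. The share called lower for anti-CTLA-4 was 1.49%, but 0.0897% by Bonferroni and 1.43% and 0.836% at minimums of 1 and 5 RPKM. For anti-CTLA-4 the 2 called higher became 6 with adjustment over tested genes only, 0 by Bonferroni, 1 at a minimum of 5 RPKM, 4 when centred on the median tested gene, 7 with library size scaling and 1 without members resting on 1 library; the 2 called lower became 1 by Bonferroni and at minimums of 1 and 5 RPKM. For anti-PD-1 DANA the 3 called higher became 6 over tested genes only, 0 by Bonferroni and 6 with library size scaling. For the combination the 5 called higher became 9 over tested genes only, 0 by Bonferroni, 2 at 5 RPKM and 3 without members resting on 1 library. All 14 single calls, in both directions, were kept with adjustment over tested genes, centring and library size scaling, and by Bonferroni 3 were kept, all of Cdc45, and 11 lost. Median log2 fold changes became 2.71, 0.94 and 1.28 for anti-CTLA-4 and 2.85, 1.03 and 1.40 for anti-PD-1 DANA (minimum of 1 RPKM, centred, library size scaling), and 2.21 and 1.92 for the combination (centred, library size scaling). The minimum of 1 RPKM was set on the larger of the 2 arm means, so a member could pass through the treated arm alone. Medians under it are thus no separate support, and no median over all tested genes under it is given here. Equal variances turned 0 called members into 3 and 2 for the combination against anti-CTLA-4 and anti-PD-1 DANA. A stricter adjustment or minimum tests or keeps fewer genes by construction, and the cause of the other shifts was not tested. No called member changed sign under centring or library size scaling. Among the 39 tested members, uncalled ones did: with library size scaling 9 for anti-CTLA-4 (among them Mcm2, Mcm6, Pcna, Gins2 and Mad2l1), 0 for the combination and 6 for anti-PD-1 DANA. Members at 0 to a few reads in an arm are limited by depth, and many other means rest on reads of 1 library.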
